A study of Mus musculus with 6 samples.

Results

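Gucy2d, Pde2a, Cnga3 and Car2, 4 genes of the guanylyl cyclase pathway of necklace olfactory sensory neurons (OSNs), were followed in the transcriptome of the mouse olfactory mucosa. They were chosen by name, as genes of OSNs that do not use a conventional odorant receptor (OR), and each gene was the sum of its listed transcripts. They are 4 of the 24661 genes in the transcript tables, and all 4 are among the 22152 genes that had at least 1 count in some mouse. RNA was sequenced from tissue labelled as olfactory epithelium, which the methods describe as the entire mucosa, of 3 wild-type mice and 3 RTP1,2DKO mice, which lack both Rtp1 and Rtp2, genes for proteins that help ORs reach the cell surface. All 6 mice were of the C57BL/6 strain and were 21 days old, and no other allele, agent or treatment is named for either group. The mutant alleles were made in hybrid embryonic stem cells of 129 and B6 origin, with loxP in place of the Rtp1 coding region and a puromycin resistance cassette in place of that of Rtp2. The mutation is carried in every cell, and the controls were littermates matched for sex.

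Necklace neurons are a small set of OSNs lying mostly in recesses of the caudal epithelium, and their axons reach a ring of glomeruli around the caudal olfactory bulb. Conventional OSNs signal through an OR, the G protein Golf, adenylyl cyclase 3 and cyclic AMP, which opens a channel built around Cnga2. Necklace neurons instead carry the receptor guanylyl cyclase GC-D and signal with cyclic GMP, and they detect the intestinal peptides guanylin and uroguanylin, carbon disulfide and, through carbonic anhydrase, carbon dioxide.

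Gucy2d encodes GC-D itself. It lies on the plus strand at chr7:98440416-98477479 (GRCm38), 0.29 Mb from Omp, the gene of the olfactory marker protein. Pde2a encodes the phosphodiesterase that breaks down cyclic GMP in these cells and spans chr7:101421691-101512827, 2.94 Mb from Gucy2d. Cnga3 encodes the channel subunit opened by cyclic GMP, shared with cone photoreceptors, and lies at chr1:37214434-37263384. Car2 encodes carbonic anhydrase 2, which turns carbon dioxide into bicarbonate, and lies at chr3:14886273-14900770. All 4 are protein-coding genes on the plus strand.

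The sequences just before the annotated starts of Gucy2d and Cnga3 are shown because these genes were taken here as the markers of necklace neurons. Each is the 250 bases upstream of a start in RefSeq (GRCm38.p6, plus strand, 5′ to 3′), and the last 30 bases before the start are in capitals. Gucy2d has one start, with the window chr7:98440166-98440415, and Cnga3 has a pair of starts, with the windows chr1:37218028-37218277 and chr1:37218955-37219204.
Gucy2d: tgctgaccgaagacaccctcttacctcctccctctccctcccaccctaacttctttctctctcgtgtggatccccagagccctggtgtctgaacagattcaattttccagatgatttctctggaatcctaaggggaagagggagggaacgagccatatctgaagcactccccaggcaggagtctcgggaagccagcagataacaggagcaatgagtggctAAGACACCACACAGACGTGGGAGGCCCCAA
Cnga3, first start: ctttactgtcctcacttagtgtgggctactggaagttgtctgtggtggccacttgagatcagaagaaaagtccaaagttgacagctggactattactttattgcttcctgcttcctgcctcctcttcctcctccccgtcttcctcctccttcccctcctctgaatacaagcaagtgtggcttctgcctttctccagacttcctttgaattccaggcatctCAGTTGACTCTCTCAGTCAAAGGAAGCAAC
Cnga3, second start: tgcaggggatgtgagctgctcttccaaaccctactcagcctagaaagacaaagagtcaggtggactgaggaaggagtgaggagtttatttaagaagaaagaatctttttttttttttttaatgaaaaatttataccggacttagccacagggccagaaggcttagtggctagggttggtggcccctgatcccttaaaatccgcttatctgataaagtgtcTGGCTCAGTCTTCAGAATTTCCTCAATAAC
The Gucy2d window held 5 CpG dinucleotides and the Cnga3 windows held 1 and 2, against a median of 6 over 32851 promoters. Pde2a had 5 starts with between 2 and 19 CpG dinucleotides, and Car2 had no entry. The 250 bases before each start were searched on both strands for 3 strings of letters, none of which contains another. The strings were CCCNNGGG, the core of the site bound by early B-cell factors, TAATTA, a homeodomain core, and TATAAA, the TATA box. CCCNNGGG was in 0 of the 8 windows of these genes, and 11.8% of all promoters hold it. TAATTA was likewise in 0 of 8, against 4.84% of all promoters, and TATAAA was in 1 of 8, the second Cnga3 start, against 12.4%. These matches describe letters only and carry no information on binding.

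The deletion was checked first. Rtp1 gave 20521.9, 25300.9 and 13542.6 normalized counts in wild-type mice 1, 2 and 3 and 90.6, 85.5 and 108.8 in the RTP1,2DKO mice, where mice are given in the order of their replicate numbers throughout and a normalized count is the estimated read count of a gene divided by a size factor for the library. Rtp2 gave 8496.7, 9510.5 and 7156.7 in wild-type and 58.0, 26.2 and 51.0 in RTP1,2DKO. Every mouse therefore matched its labelled genotype. The libraries held 31125410 to 41636996 estimated counts. The bulk tissue contains conventional OSNs, supporting cells, glands, glia, vessels and blood, so fewer cells of a type and less RNA per cell cannot be told apart in any value given here.

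Gucy2d, the defining gene of the necklace neurons, was detected in every mouse at a low level. The estimated counts were 110, 71 and 116 in the wild-type and 167, 128 and 210 in the RTP1,2DKO mice. The smallest of these, 71, has an exact 95% Poisson interval of 55.5 to 89.6, which covers counting error only. After scaling, the values were 113.8, 67.7 and 127.9 in wild-type and 176.0, 111.6 and 205.8 in RTP1,2DKO. Replicate 2 was the lowest mouse of each genotype, and RTP1,2DKO mouse 2 lay just below wild-type mice 1 and 3, so the groups overlapped. The means were 103 ± 31.5 and 165 ± 48.1 normalized counts (SD, n = 3 mice each). The log2 fold change, RTP1,2DKO over wild-type, was 0.67 with a standard error of 0.30 and a 95% interval of 0.03 to 1.31, a fold of 1.60 (1.02 to 2.49). With Benjamini-Hochberg adjustment over all 22152 genes tested by edgeR's quasi-likelihood test, the adjusted p was 0.388.

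Much of the spread of Gucy2d lay between mice of one genotype. The coefficient of variation was 30.5% in wild-type and 29.3% in RTP1,2DKO, whereas counting error alone at these depths would give 10.1% and 7.71%. Replicate 2 of each group was also the mouse with high Xist, the RNA that coats the inactive X chromosome of females: 73700 and 66400 normalized counts against 114 to 155 in the other mice. With both of these mice left out, a choice made after seeing the data, the log2 fold change was 0.66 ± 0.27 (SE) with an adjusted p of 0.369 by the same edgeR test. Leaving out wild-type mouse 2 alone lowered it to 0.44 (adjusted p 0.619), and leaving out RTP1,2DKO mouse 2 alone raised it to 0.89 (adjusted p 0.186). The part of sex in the level of Gucy2d was not tested. Mice of the same replicate number differed by similar ratios of Gucy2d, RTP1,2DKO over wild-type, of 1.55, 1.65 and 1.61, although no source says which littermates share a number. These ratios were 1.12, 1.13 and 1.15 for Pde2a but less even for Cnga3 (1.65, 1.27 and 1.5) and Car2 (2.45, 1.42 and 0.953).

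Cnga3, the channel subunit, was as scarce as Gucy2d and was the steadier of the pair in wild-type. It gave 76.5, 70.6 and 73.9 normalized counts in the wild-type and 126.4, 89.8 and 110.7 in the RTP1,2DKO mice. Each RTP1,2DKO mouse was above each wild-type mouse, as were 1252 of the 15430 genes with a mean of at least 50 normalized counts (8.11%). Cnga3 and Pde2a were the 2 of the 4 genes with such a pattern, and 0 of the 4 had the opposite one, which 10.8% of those genes had. The means were 73.7 ± 2.98 and 109 ± 18.4 (SD, n = 3 mice each). The log2 fold change was 0.56 ± 0.26 (SE), with a 95% interval of 0.01 to 1.12 and a fold of 1.48, and the adjusted p of edgeR's quasi-likelihood test was 0.412. RTP1,2DKO mouse 2 was again the lowest of its group. The coefficient of variation of 4.04% in wild-type lay under the 11.8% that counting error would give on average, so that the narrow wild-type spread is not a measure of how much mice vary.

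The transcript tables list a pair of Cnga3 transcripts, of 3623 and 3568 bases. All counts went to the shorter transcript in 5 of the 6 mice, while in RTP1,2DKO mouse 2 all 103 counts went to the longer one. Taken alone, the shorter transcript gave a log2 fold change of 0.09 and an adjusted p of 0.987 in the edgeR fit, because it is empty in that mouse. Which annotated start each listed transcript uses is not given in the sources used here.

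Pde2a, the cyclic GMP phosphodiesterase, was several times more abundant and differed little between genotypes. The normalized counts were 818.2, 846.3 and 801.6 in the wild-type and 913.6, 959.3 and 921.2 in the RTP1,2DKO mice. The RTP1,2DKO mice were all above the wild-type mice, with a gap between the groups wider than the spread within either. The means were 822 ± 22.6 and 931 ± 24.5 (SD, n = 3 mice each). The log2 fold change was 0.18 ± 0.12 (SE), a fold of 1.13 with a 95% interval of 0.948 to 1.35, and the adjusted p by edgeR's quasi-likelihood test was 0.663. The spread over mice, 2.75% and 2.63%, was no larger than that of counting, 3.53% and 3.21%.

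Of 5 listed Pde2a transcripts, the one of 4053 bases held between 80.0% and 100% of the counts of the gene in every mouse. The gene overlaps the exons of Gm45837 on the same strand, and Mir139 lies within its span. Gm45837 is not among the transcripts counted. Only 36.2% of the 31-base words in Pde2a transcripts occur in no other gene of the annotation. Reads that hold only the remaining words cannot be told apart from those of other genes, and the share due to Gm45837 was not determined. For comparison, 100% of such words were unique for Gucy2d and Car2 and 98.4% for Cnga3. Pde2a is made in blood vessels too, and 5 endothelial markers summed to 3049 to 3760 normalized counts in wild-type and 3179 to 3582 in RTP1,2DKO, with 0 of the 5 passing the edgeR test. The part of vessels in the level of Pde2a was not tested.

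Car2, carbonic anhydrase 2, was the most abundant of the 4 genes and varied most between mice relative to counting error, with coefficients of variation of 27.6% and 18.2% against 1.47% and 1.17% from counting. It gave 3342.2, 5094.0 and 5935.0 normalized counts in the wild-type and 8191.8, 7249.5 and 5654.3 in the RTP1,2DKO mice. Wild-type mouse 1 was the lowest and RTP1,2DKO mice 1 and 2 were the highest, but RTP1,2DKO mouse 3 fell below wild-type mouse 3, so the groups overlapped. The means were 4790 ± 1323 and 7032 ± 1283 (SD, n = 3 mice each). The log2 fold change was 0.55 ± 0.20 (SE), with a 95% interval of 0.13 to 0.98 and a fold of 1.47, and the adjusted p by edgeR's quasi-likelihood test was 0.211. The value depended on single mice: without wild-type mouse 1, the lowest, the log2 fold change was 0.35 (adjusted p 0.434), without RTP1,2DKO mouse 1, the highest, it was 0.43 (adjusted p 0.51), and without wild-type mouse 3 it was 0.74 (adjusted p 0.0557), by the same edgeR test.

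Car2 is also a major enzyme of red blood cells, and red cell markers moved with it. The summed level of 5 erythroid markers, Hbb-bs, Hbb-bt, Hba-a1, Hba-a2 and Alas2, was 57890, 94380 and 74530 normalized counts in the wild-type and 169800, 122700 and 92240 in the RTP1,2DKO mice. Wild-type mouse 1 was lowest and RTP1,2DKO mice 1 and 2 were highest for both Car2 and this sum, while the remaining mice were ordered differently. Over the 6 mice, Pearson's r with this sum was 0.898 for Car2, 0.747 for Pde2a, 0.719 for Cnga3 and 0.272 for Gucy2d, so the likeness was not confined to Car2. Of these 5 markers, Hbb-bt passed the test (log2 fold change 0.88, adjusted p 0.0485 by edgeR), all 5 fold changes were positive, and their median was 0.76. The globin genes are near-identical copies, so the division of reads among them is uncertain. The part of blood in the level of Car2 was not tested. Osteoclasts, which use Car2 to acidify bone, had 3 markers with summed levels of 12710 to 16390 in wild-type and 15990 to 17380 in RTP1,2DKO, and 0 of the 3 passed the edgeR test.

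**Figure D1:**
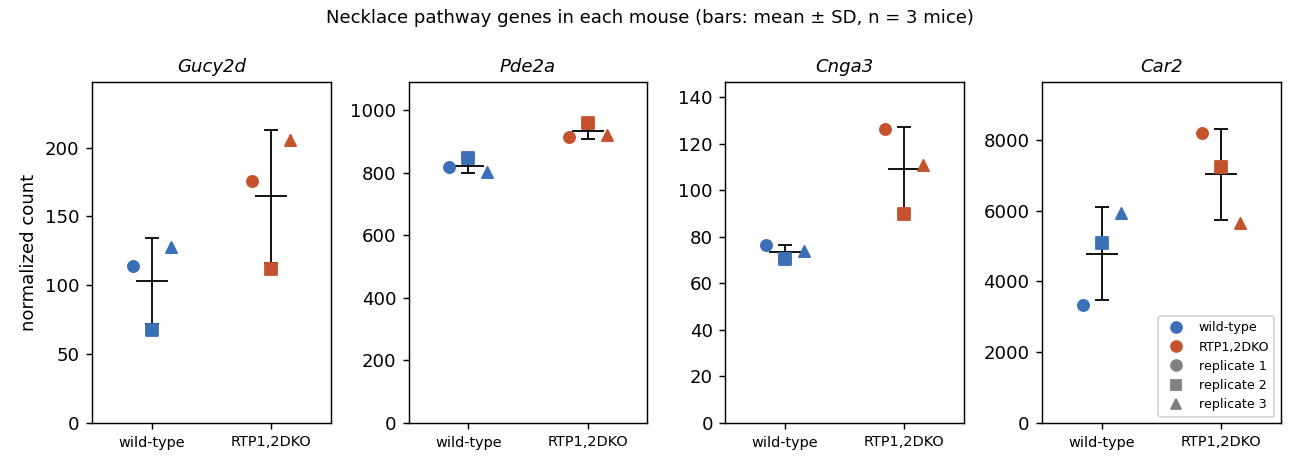
Normalized counts (vertical axis, from 0) of Gucy2d, Pde2a, Cnga3 and Car2 in each wild-type (blue) and RTP1,2DKO (orange) mouse, with marker shape giving the replicate number and black bars the mean ± SD of 3 mice. The genotypes do not overlap for Pde2a and Cnga3, whereas RTP1,2DKO mouse 2 (111.6) overlaps wild-type for Gucy2d and RTP1,2DKO mouse 3 (5654.3) overlaps for Car2.

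None of the 4 genes passed the adjusted threshold of 0.05 in either direction, where 799 of 22152 genes (3.61%) passed, 102 of them higher in RTP1,2DKO (0.46%) and 697 lower (3.15%). Scaling each library to 10 genes of conventional transduction instead, a choice made after seeing the data, called all 4 as higher, but with them 16044 of all genes (72.4%), and 227 as lower. That scaling moved the median of all genes from 0.016 to 1.17, and every fold change given here is relative to the bulk of genes, without it. DESeq2 and edgeR's likelihood-ratio test each called 0 of the 4. At an unadjusted p under 0.05 and a higher level in RTP1,2DKO, 3 of the 4 passed, namely Gucy2d, Cnga3 and Car2, against 1015 of all genes (4.58%). All 4 fold changes were positive, with a median of 0.56 on the log2 scale beside the 0.016 of all genes tested. The 95% intervals, which are not adjusted for the number of genes, ran from 1.02 to 2.49-fold for Gucy2d, from 1.01 to 2.17-fold for Cnga3 and from 1.10 to 1.97-fold for Car2, while that of Pde2a included no change.

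The 4 genes covered a wide range of abundance. Per transcript length, as counts scaled by effective length and library total (FPKM), Cnga3 stood at 0.704 ± 0.0445 in wild-type and 1.02 ± 0.238 in RTP1,2DKO (SD, n = 3 mice each). Gucy2d stood at 0.951 ± 0.225 and 1.51 ± 0.441 FPKM. The order of these neighbours did not exceed their spread, since in wild-type mouse 2 Cnga3 (0.738) was above Gucy2d (0.693). Pde2a followed at 6.79 ± 0.781 and 7.50 ± 0.479, and Car2 was highest at 110 ± 29.4 and 160 ± 39.7, and neither of these overlapped its neighbours in any mouse.

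Necklace transcripts were scarce beside the corresponding parts of the conventional cascade. In FPKM, Cnga2, the channel subunit of conventional OSNs, stood 259 to 357 times above Cnga3 within single wild-type mice and 85.4 to 128 times above it within RTP1,2DKO mice. Adcy3, the conventional cyclase, stood 78.8 to 154 times above Gucy2d in wild-type and 20.3 to 38.1 times in RTP1,2DKO. Pde4a, the conventional phosphodiesterase of the OSN cell body, stood 8.12 to 10.7 times above Pde2a in wild-type and 3.73 to 3.99 times in RTP1,2DKO. Each of the 3 ratios was thus smaller in every RTP1,2DKO mouse than in every wild-type mouse. Such a separation was not particular to these genes. Against the mean of 10 genes of conventional transduction, 14369 of 15430 genes (93.1%) were higher in every RTP1,2DKO mouse. That share is over genes with a mean of at least 50 normalized counts.

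**Figure D2:**
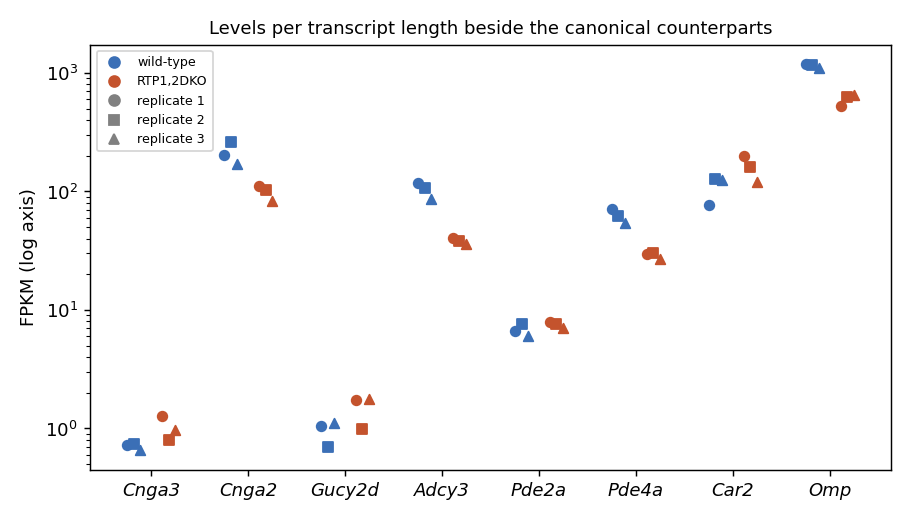
FPKM on a log axis of Cnga3, Gucy2d, Pde2a and Car2 beside the conventional genes Cnga2, Adcy3, Pde4a and Omp in each wild-type (blue) and RTP1,2DKO (orange) mouse, with marker shape giving the replicate number. Gucy2d and Cnga3 sit near 1 FPKM in both genotypes, and the conventional genes sit far above them and lower in RTP1,2DKO than in wild-type.

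Relative to the bulk of genes, the conventional cascade fell in RTP1,2DKO. Of 10 genes of canonical transduction, 9 passed edgeR's quasi-likelihood test as lower and Gng13 did not (adjusted p 0.0857). Over all genes, 3.15% passed that test as lower. DESeq2 and edgeR's likelihood-ratio test each called all 10 as lower. The median log2 fold change over the list was -1.09. Scaling to these 10 genes themselves leaves 1 of them lower and 0 higher. Adcy3 went from 13850 ± 1774 to 5201 ± 107 normalized counts (SD, n = 3 mice each; log2 fold change -1.41, adjusted p 4.79e-05), Cnga2 from 18520 ± 2532 to 8913 ± 833 (log2 fold change -1.05, adjusted p 0.000624) and Omp from 64810 ± 4152 to 34630 ± 6247 (log2 fold change -0.90, adjusted p 0.00297), all by edgeR's quasi-likelihood test.

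**Figure D3:**
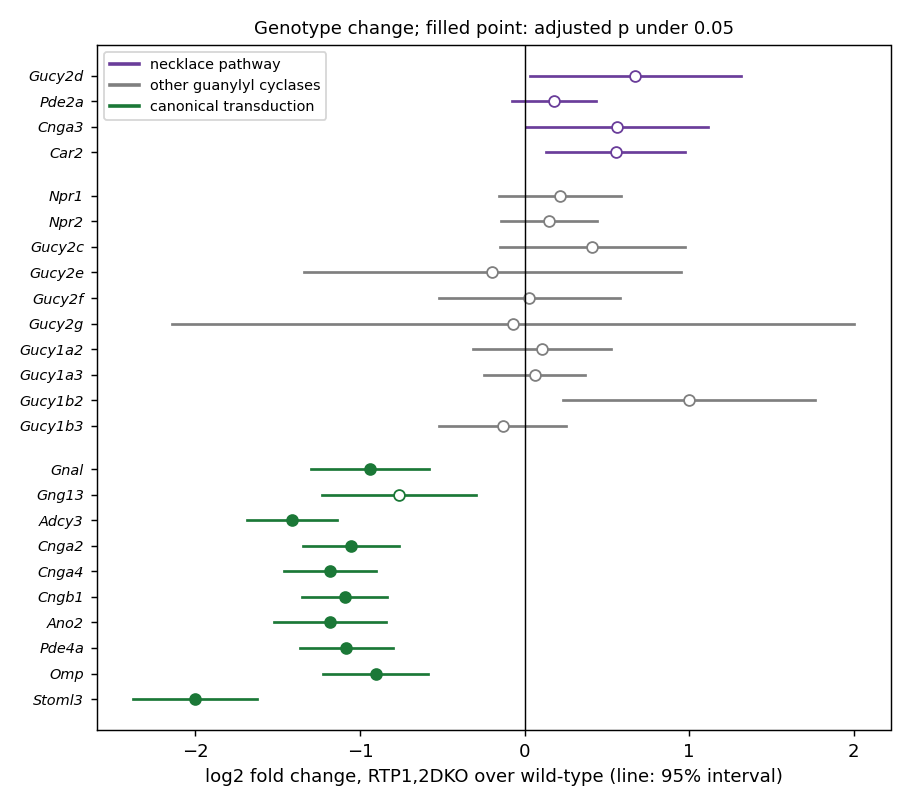
Log2 fold change of RTP1,2DKO over wild-type (horizontal axis) with its 95% interval (lines) for the necklace pathway (purple), 10 other guanylyl cyclase genes (grey) and 10 canonical transduction genes (green), with filled points where the adjusted p of edgeR's quasi-likelihood test was under 0.05. The necklace genes lie between 0.18 and 0.67 with open points, and the canonical genes lie between -0.76 and -2.00.

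Set against the canonical genes of the same library, the necklace genes were higher in RTP1,2DKO. The log2 ratio of Gucy2d to the mean of the 10 canonical genes was -6.43, -7.22 and -6.09 in the wild-type and -4.64, -5.31 and -4.30 in the RTP1,2DKO mice, a difference of 1.83 or 3.55-fold. For Pde2a the ratio was -3.58, -3.59 and -3.45 in wild-type and -2.27, -2.21 and -2.14 in RTP1,2DKO, a difference of 1.33 or 2.52-fold. For Cnga3 it was -7.00, -7.16 and -6.88 in wild-type and -5.12, -5.62 and -5.19 in RTP1,2DKO, a difference of 1.70 or 3.25-fold. For all 3, no RTP1,2DKO mouse overlapped a wild-type mouse. For Car2 the ratio was -1.556, -1.003 and -0.560 in wild-type and 0.90, 0.70 and 0.48 in RTP1,2DKO, a difference of 1.73 or 3.32-fold, again with no overlap. A two-sided exact permutation test gave p = 0.1 for each gene, the smallest value that 3 mice against 3 allow.

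These ratios were not particular to the necklace genes. Of the 15430 genes with a mean of at least 50 normalized counts, 14369 (93.1%) also had a higher ratio in every RTP1,2DKO mouse, and the median difference over these genes was 1.17. Against its own counterpart alone, the ratio in RTP1,2DKO was 4.23 times that in wild-type for Gucy2d over Adcy3. It was 3.03 times for Cnga3 over Cnga2 and 2.39 times for Pde2a over Pde4a. In each case the groups did not overlap and the exact permutation p was 0.1. The counterparts were themselves lower in RTP1,2DKO, with log2 fold changes of -1.41 (Adcy3), -1.05 (Cnga2) and -1.08 (Pde4a). The share of all genes with such a pattern was not computed for single counterparts.

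**Figure D4:**
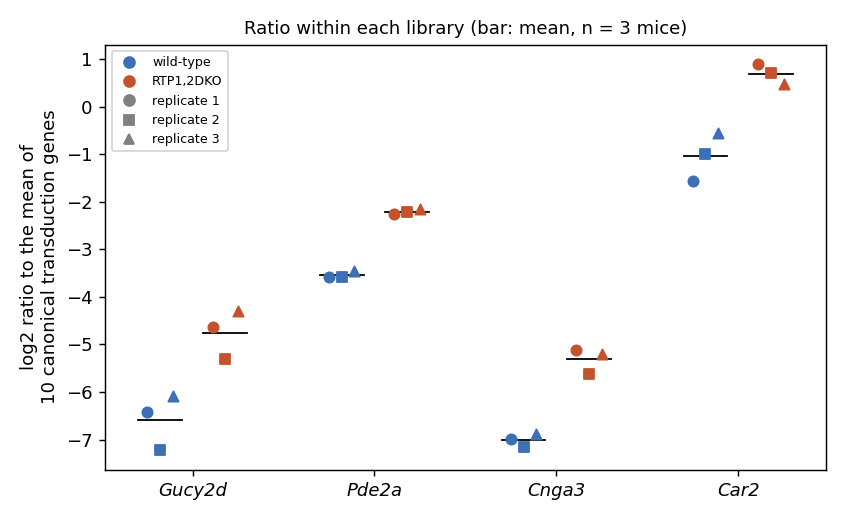
Log2 ratio of each necklace gene to the mean of 10 canonical transduction genes within each library (vertical axis), for wild-type (blue) and RTP1,2DKO (orange) mice, with marker shape giving the replicate number and bars the mean of 3 mice. Every RTP1,2DKO mouse lies above every wild-type mouse for all 4 genes, as it does for 93.1% of genes of moderate or high count.

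The partners of GC-D were rare or did not pass the test. Guca2b, which encodes uroguanylin, had 0 counts in all mice, and Guca2a, which encodes guanylin, was at 0 in wild-type and at 1.1, 0 and 2.0 normalized counts in RTP1,2DKO. A count of 0 still allows a true mean of up to about 3 counts in that library, as a one-sided 95% Poisson limit. Both peptides are made mainly in the gut. Of 4 calcium sensor genes, 0 passed the edgeR test, and Ncald and Guca1a had an unadjusted p under 0.05. Ncald, which encodes neurocalcin delta, a calcium-binding regulator of GC-D, had 1492.7, 1220.3 and 1012.1 normalized counts in wild-type and 1545.8, 1600.3 and 1938.3 in RTP1,2DKO. The groups did not overlap, but the log2 fold change of 0.45 ± 0.15 (SE) had an adjusted p of 0.184 by edgeR. Guca1a, a guanylyl cyclase activator of photoreceptors, had a mean of 8.44 in wild-type and 22.5 in RTP1,2DKO with no overlap (adjusted p 0.414), and Hpca and Guca1b overlapped between the groups.

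The Ms4a genes encode 4-pass membrane proteins, several of which serve as chemoreceptors in necklace neurons. Of 18 listed, 17 were in the tables, 15 had a count and 0 passed the edgeR test, also at an unadjusted p under 0.05, with 9 positive fold changes of 15 and a median of 0.33. Ms4a13 and Ms4a18 were at 0 in every mouse. Ms4a1, also the B-cell gene of CD20, had the highest mean level of the list in both genotypes, with 174 ± 65.8 normalized counts in wild-type and 222 ± 101 in RTP1,2DKO (SD, n = 3 mice each; adjusted p 0.785 by edgeR). The sum of 3 B-cell markers ranged from 126 to 318 in wild-type and from 215 to 330 in RTP1,2DKO, and RTP1,2DKO mouse 1 was highest for both. The part of B cells in the level of Ms4a1 was not tested.

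Of 10 other guanylyl cyclase genes, 0 passed the edgeR test and 1, Gucy1b2, had an unadjusted p under 0.05, while 7 fold changes were positive and the median was 0.08. Gucy1b2, which encodes a soluble cyclase subunit found in another set of OSNs that also lack conventional ORs and use the channel Trpc2, had 32.1, 44.8 and 23.2 normalized counts in wild-type and 65.3, 75.9 and 59.8 in RTP1,2DKO. It did not overlap between the groups, and its log2 fold change was 1.00 ± 0.35 (SE) with an adjusted p of 0.215 by edgeR. Gucy2c, the gut receptor of the same peptides as GC-D, had means of 1176 and 1563 with overlapping groups. Gucy2e and Gucy2f, the retinal receptor cyclases, had means of 21.2 and 119 in wild-type and 18.5 and 122 in RTP1,2DKO. Gucy2g, the receptor cyclase of the Grueneberg ganglion, reached at most 10.5 normalized counts in any mouse.

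Among the relatives of Pde2a, Cnga3 and Car2, those that passed the test were lower in RTP1,2DKO, although under scaling to the conventional genes 0 of them were called lower. Over all genes tested, 3.15% passed as lower and 0.46% as higher. Of 23 other phosphodiesterase genes, 3 were lower and 0 higher, namely Pde1c, the calcium-dependent enzyme of OSN cilia (log2 fold change -1.05, adjusted p 0.00088), Pde4a (-1.08, adjusted p 0.000386) and Pde7b (-0.89, adjusted p 0.00797), all by edgeR, and the list had a median of -0.04. Of 5 other cyclic nucleotide-gated channel subunits, the 3 that build the conventional channel, Cnga2, Cnga4 and Cngb1, were lower. Cngb3, the subunit that pairs with Cnga3 in cones, had 14.5, 11.4 and 14.3 normalized counts in wild-type and 16.9, 35.8 and 52.9 in RTP1,2DKO. It thus stood above wild-type in every RTP1,2DKO mouse, with a log2 fold change of 1.39 ± 0.53 (SE) and an adjusted p of 0.27 by edgeR. Of 15 other carbonic anhydrase genes, 0 passed the edgeR test and 1, Car5b, had an unadjusted p under 0.05, while 12 fold changes were positive and the median was 0.23. By DESeq2 and by edgeR's likelihood-ratio test, 0 of the calcium sensor, Ms4a, guanylyl cyclase and carbonic anhydrase genes passed.

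Markers of immature OSNs moved in the same direction as the fold changes of the necklace genes. Gap43, a growth cone protein, and Gng8, a G protein gamma subunit of immature OSNs, were higher in RTP1,2DKO (log2 fold change 0.58, adjusted p 0.0418, and 0.91, adjusted p 0.0104, by edgeR). Stmn1, which regulates microtubules, had a log2 fold change of 0.48 and an adjusted p of 0.0693. Their part in the levels of the necklace genes was not tested.

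The genes with the most similar profiles over the 6 mice were named by Pearson's r of log2 normalized counts among 15429 genes. This is a description over 6 points that share a genotype split and a size factor. For Gucy2d they were 4930556M19Rik (r = 0.988), Shb (0.980) and Shtn1 (0.980), all with replicate 2 lowest in each genotype. For Cnga3 they were Nt5dc2 (0.989), Apool (0.985) and Cd320 (0.977). For Pde2a they were Mcm3 (0.996), Slc1a5 (0.995) and Tuba1b (0.990), and these 3 passed the edgeR test as higher in RTP1,2DKO, with log2 fold changes of 0.71, 0.55 and 0.54. For Car2 they were Olfr92 (0.991), Larp6 (0.990) and Bora (0.989), with RTP1,2DKO mouse 1 highest and wild-type mouse 1 lowest in each. No other necklace gene was among the 3 named for any of the 4.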

How the data were processed

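Total RNA from the dissected mucosa of 6 mice, 3 per genotype, went into stranded libraries read on an Illumina HiSeq. The sources differ on the kit, which is KAPA per the labels and TruSeq per the study's methods. Per the labels and the study's methods, the authors quantified reads with kallisto against mouse transcripts (build mm10) in which OR genes were replaced by extended models. The kallisto version and strand setting are not given in the sources used here. The deposited tables hold estimated counts, effective lengths and TPM for 38041 transcripts in each mouse. TPM, scaled by the authors to transcript length and library, entered only 1 alternative for the ratios.

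Estimated counts were summed per gene (name without its trailing number) and rounded to whole numbers. The 22152 of 24661 genes that had 1 count or more in any mouse were fitted with edgeR 4.0.16 (glmQLFit, glmQLFTest, R 4.3.3), and libraries were scaled by the median of ratios of DESeq2 1.42.0. No covariate was used. P-values were adjusted by Benjamini-Hochberg over all genes, with a threshold of 0.05. Groups came from the genotype labels, and the fit was tested on simulated data. Replicates are separate mice. Library totals of 31125410 to 41636996 put the counting error of Cnga3, the scarcest gene, at 11.8% in wild-type.

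FPKM scales the count by the effective length in kilobases and the library total. Ratios used log2(normalized count + 0.5) within a library, with exact permutation tests. Positions and word counts came from the GRCm38 annotation (GENCODE), and promoters from RefSeq. Genes were named because they are among the 4, check the deletion, are conventional counterparts, belong to a list of relatives, partners or cell markers, or rank among the 3 most similar profiles (mean of at least 50 normalized counts). Xist was named after its values were seen. Members and lists were chosen with earlier results of these data known. A marker of the erythroid list is not reported here, for a reason unrelated to its values, and the counts, sum and median of that list leave it out. Alternatives were other size factors, filters, tests, reference genes and pseudocounts, a replicate block and each mouse left out.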

Additional observations from a re-analysis of the deposited data

How the results depend on the processing

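The numbers give the log2 fold change of RTP1,2DKO over wild-type unless stated otherwise. All 4 genes kept a positive sign and stayed short of the adjusted threshold under each of their 11 or 12 alternatives of TMM scaling, filter, test, block, transcript and omitted mouse, though not under the scaling to canonical genes given next, with adjusted p between 0.116 and 0.793 for Gucy2d, 0.509 and 0.897 for Pde2a, 0.357 and 0.987 for Cnga3 and 0.0557 and 0.51 for Car2. Leaving out 1 mouse at a time, the fold change ran from 0.44 to 0.89 for Gucy2d, 0.16 to 0.20 for Pde2a, 0.44 to 0.69 for Cnga3 and 0.35 to 0.74 for Car2, and the number of genes called from 598 to 777. The difference in log2 ratio to canonical genes, RTP1,2DKO minus wild-type, stayed between 1.10 and 2.11 for the 4 genes under every alternative run.

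Scaling the libraries to the 10 canonical genes, chosen after seeing the data, called 16271 genes, 16044 higher (98.6% of calls) and 227 lower, against 102 higher and 697 lower before, and moved the median of all genes to 1.17. Gucy2d was then at 1.82 (adjusted p 8.34e-05), Pde2a at 1.33 (3.51e-06), Cnga3 at 1.72 (4.04e-05) and Car2 at 1.69 (4.44e-06) by edgeR, beside 72.4% of genes called higher. By construction, this scaling leaves the canonical genes with no change on average.

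With the replicate block, 1012 genes were called and the values were 0.68 for Gucy2d (adjusted p 0.116), 0.18 for Pde2a (0.641), 0.55 for Cnga3 (0.365) and 0.58 for Car2 (0.164) by edgeR. Correlations of deviations between same-numbered mice were 0.131, 0.172 and 0.0936 over 18133 genes. Those between mice of different numbers and genotypes ran from -0.216 to 0.0981, and 5 of 6 mice correlated best with their own number. The numbers were not taken as pairs because no source says which littermates share a number, and these correlations do not settle it. With replicates 1 and 3 alone, also chosen after seeing the data, 557 genes were called and none of the 4. Counts of the most counted transcript could not be tried for Gucy2d and Car2, which have 1 transcript, and the ratio of Car2 has no conventional counterpart. Depth limits Gucy2d and Cnga3, at 67 to 210 counts, more than the other genes.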
